A study of Mus musculus with 24 samples.

Results

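The 49 genes described here carry out mitosis: cyclins and CDK1 activators, mitotic kinases, the spindle checkpoint, the anaphase machinery, the chromosomal passenger complex, kinetochores, kinesins, the cytokinesis apparatus, chromosome structure genes and the transcription factor Foxm1. They were taken by gene symbol from 35140 reference gene names in the files, by a rule that uses no measured value, although the list was drawn up with earlier results of these data known. RNA was measured in a mouse fibroblast line from embryos, C3H 10T1/2, whose cells the myogenic transcription factor MyoD can convert towards muscle. The wild type line (WT) and 2 LncMyoD knockout clones, clone 1 and clone 2, were compared, LncMyoD being a long noncoding RNA encoded near Myod1. In each line the cells were untreated, given MyoD adenovirus, given a LncMyoD plasmid or given both, with 2 libraries in each of the 12 groups and 24 libraries in all. All lines grew in medium with 10% fetal bovine serum, which per the labels was replaced by 2% horse serum after transdifferentiation by MyoD, so virus and serum cannot be told apart. No group received an empty virus or an empty plasmid, each knockout line is 1 clone, and the labels do not say whether the 2 libraries of a group were separate cultures, so each p-value rests on a spread between libraries that may be only technical.

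Entry into mitosis is driven by CDK1 bound to cyclin B, which CDC25 phosphatases switch on. Polo-like and Aurora kinases then build the spindle, the checkpoint holds anaphase back until every kinetochore is attached, and CDC20 and UBE2C direct the anaphase-promoting complex to degrade cyclin B and securin. Most of these genes are transcribed in late S and G2 phase under the MuvB complexes, B-MYB and FOXM1, are silent in resting cells, and are shut off when muscle precursors leave the cell cycle to differentiate.

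The promoters of this gene class are known for 2 short elements. The cell cycle genes homology region (CHR, TTTGAA or TTCGAA) binds MuvB, and CCAAT binds the factor NF-Y. In the RefSeq promoters on GRCm38.p6, 40 of the 49 genes had an entry, and 150 bases before the annotated start were searched on both strands. CCAAT occurred in 30 of the 40 (75%) and in 27.7% of 27025 genes with a promoter entry. TTTGAA occurred in 13 of the 40 (32.5%) and in 10.5% of all genes, and TTCGAA in 1 of the 40 and 0.777% of all genes. The E-box CAGCTG, a MyoD motif, was present in 1 of the 40 (2.5%) and in 9.65% of all genes, and the E2F motif GCGCGAA in 1 of the 40 and 1.04% of all genes. A match is a run of letters and no evidence of binding. Promoters of 5 members with a CHR and, for contrast, 2 without are shown 5′ to 3′ on the gene's strand, cut where an annotated exon begins, with matches to any of these motifs in capitals on either strand (on the other strand TTTGAA reads as TTCAAA, while CCAAT reads as ATTGG and GCGCGAA reads as TTCGCGC).
Cdc20 (chr4:118437353-118437493, minus strand): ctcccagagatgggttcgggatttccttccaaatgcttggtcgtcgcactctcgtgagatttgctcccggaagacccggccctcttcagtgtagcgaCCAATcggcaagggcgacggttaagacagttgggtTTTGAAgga
Kif11 (chr19:37376232-37376381, plus strand): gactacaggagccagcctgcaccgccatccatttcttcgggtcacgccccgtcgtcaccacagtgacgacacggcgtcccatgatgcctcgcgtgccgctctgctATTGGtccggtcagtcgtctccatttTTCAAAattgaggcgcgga
Top2a (chr11:99024190-99024339, minus strand): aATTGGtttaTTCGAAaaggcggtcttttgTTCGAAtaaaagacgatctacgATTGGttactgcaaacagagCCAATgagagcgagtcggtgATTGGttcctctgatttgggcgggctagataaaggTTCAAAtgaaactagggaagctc
Kif2c (chr4:117178773-117178922, minus strand): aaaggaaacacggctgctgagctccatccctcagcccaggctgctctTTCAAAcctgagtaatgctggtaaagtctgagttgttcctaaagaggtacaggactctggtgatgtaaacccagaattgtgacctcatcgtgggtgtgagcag
Cdk1 (chr10:69352939-69353062, minus strand): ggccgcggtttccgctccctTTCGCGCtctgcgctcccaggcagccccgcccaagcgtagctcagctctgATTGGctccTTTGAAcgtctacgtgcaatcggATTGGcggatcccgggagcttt
Ccnb2 (chr9:70421555-70421704, minus strand): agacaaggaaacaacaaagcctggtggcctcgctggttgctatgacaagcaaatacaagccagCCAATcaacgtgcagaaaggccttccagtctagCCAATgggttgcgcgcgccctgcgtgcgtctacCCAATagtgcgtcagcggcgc
Aurka (chr2:172370571-172370680, minus strand): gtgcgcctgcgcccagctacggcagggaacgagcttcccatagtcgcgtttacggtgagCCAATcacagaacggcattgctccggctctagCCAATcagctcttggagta
In Cdc20 the first base of the CHR lies 18 bases and the CCAAT 53 bases before the start, and in Kif11 they lie 19 and 45 bases before it. Top2a holds 4 CCAAT boxes, 1 TTTGAA and 2 TTCGAA, and the Kif2c window 1 TTTGAA and no CCAAT. That window precedes a RefSeq start inside the annotated Kif2c gene (chr4:117159639-117182639, minus strand). It does not cover the outermost start of the gene. Ccnb2, which had the largest log2 difference, as defined below, between clone 2 with and without MyoD, has 3 CCAAT boxes in this window and no TTTGAA or TTCGAA.

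The libraries of the 3 lines differed in composition before any gene was compared. Protein-coding genes held 7.88% to 10.8% of TPM (length-adjusted shares of all transcripts within a library) in wild type, against 5.13% to 7.28% for clone 1 and 55.0% to 68.5% for clone 2. TPM was therefore divided by a median-of-ratios factor per library, which ranged over 0.417 to 0.705 for wild type, 0.320 to 0.442 for clone 1 and 3.51 to 5.73 for clone 2, and levels below are scaled TPM unless stated. Depth was 4.40 to 5.93 gigabases for wild type, 2.43 to 5.10 for clone 1 and 3.49 to 5.04 for clone 2. At the annotated lincRNA before Myod1 (1700025L06Rik, chr7:46345771-46349373, minus strand), taken here as the LncMyoD locus, transcripts were assembled in all 12 plasmid libraries at 2.64 to 53.3 TPM as deposited, not scaled, and in 2 of the 12 others, 1 each in clone 1 and clone 2 with MyoD, at 0.692 and 1.95 deposited TPM, so wild type without plasmid showed none and the locus does not check the genotype. Myod1 was at 265 to 303 in clone 2 with MyoD, at 4422 to 8244 in clone 1 with MyoD and at 5494 to 7501 in wild type with MyoD. These levels were divided by the factors above, which were highest in clone 2, so the gap between lines is smaller on the deposited TPM. All 12 fibroblast markers were listed in at least 1 library of each line, Lum in clone 1 at 1.57 or less, against 20.5 to 29.6 in wild type. Without MyoD, 3 of the 12 were called lower in clone 1 than in wild type and 1 higher, against 1.97% and 0.773% of all tested genes. Of 18 muscle markers, 9 were called higher with MyoD in wild type, 2 in clone 1 and 10 in clone 2. The 18 include Myod1, which the virus delivers, so its rise was fixed by the design. Summed macrophage, epithelial, endothelial and neural markers stayed at or below 11.7, with Epcam, Cdh1, Cdh5, Csf1r and Dcx at 0 in every library. In bulk RNA, fewer cycling cells cannot be told apart from less RNA per cell.

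The summed level of the 49 genes separated clone 2 without MyoD from every other library (plot of the summed level per library). It was 150.04, 151, 166 and 174 in the 4 libraries of clone 2 without MyoD and 63.2, 66.6, 72.3 and 80.4 in those with MyoD, a ratio of medians of 0.438. In wild type it was 60.6, 65.2, 66.8 and 79.6 without MyoD and 63.7, 63.9, 68.9 and 73.7 with MyoD, a ratio of 1.006. Clone 1 had 28.3, 30.5, 32.9 and 58.6 without MyoD and 40.04, 40.2, 42.2 and 44.9 with MyoD, a ratio of 1.2996. The 2 arms did not overlap in clone 2 and overlapped in wild type and clone 1, where the library at 58.6, clone 1 with plasmid replicate 1, stood above the rest. Much RNA at these loci sat in assembled transcripts with no reference name: adding those that share at least 50% of their exonic length with the gene raised the sum to 167 to 229 for wild type, 129 to 199 for clone 1, 247 to 270.5 in clone 2 without MyoD and 153 to 166 in clone 2 with MyoD. With them the clone 2 ratio was 0.635, and with TPM as deposited 0.318. The list was chosen with results known, so the sum carries no test.

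**Figure D1:**
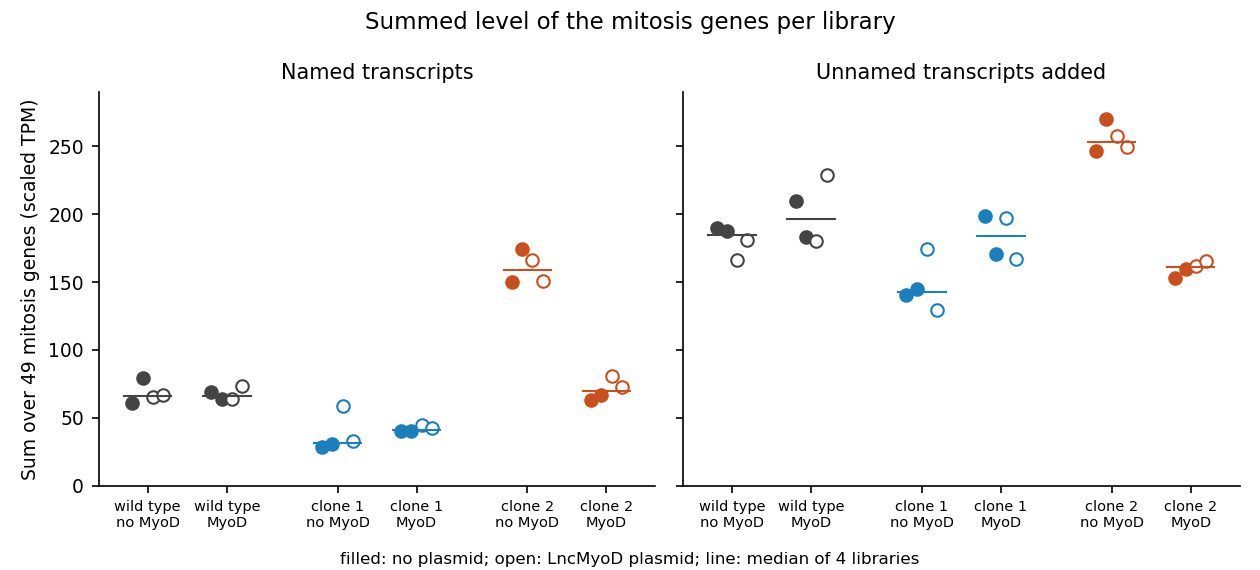
Sum of scaled TPM over the 49 mitosis genes in each of the 24 libraries by line and MyoD, for reference-named transcripts (left) and with unnamed transcripts added by exon overlap (right); filled points had no plasmid, open points had the LncMyoD plasmid, and lines mark medians of 4. Clone 2 without MyoD lies at 150.04 to 174 on the left and 247 to 270.5 on the right, above every other library in both panels.

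Each gene was compared with limma on log2(scaled TPM + 1), over 16824 genes that reached 1 scaled TPM in at least 2 libraries, and a gene counted as called where its p after Benjamini-Hochberg adjustment was under 0.05 and its log2 difference at least 1 in size. Of the 49 genes 45 passed this filter, of which Kif4, Kif11 and Kif23 reached 1 scaled TPM only in libraries of clone 2 without MyoD. Aurka, Cdc20, Cdc25c, Ndc80 and Nusap1 reached it only in clone 2, with and without MyoD. The 4 genes that did not pass stayed low: Ttk, a checkpoint kinase, reached at most 0.756, Espl1 (separase) 1.36 in a single library, Spc24, an NDC80 complex subunit, 1.53 in a single library, and Ska1, an outer kinetochore protein, 0.851. In clone 2 without MyoD 48 genes were listed in each of the 4 libraries, against 37 to 44 in clone 2 with MyoD, 31 to 40 for wild type and 17 to 29 for clone 1 (heat map of levels in all libraries). Over all genes the number at 1 deposited TPM or more moved the same way, at 12563 to 13245, 10412 to 10961, 5446 to 6964 and 4274 to 5758, and its part in the members' counts was not tested.

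**Figure D2:**
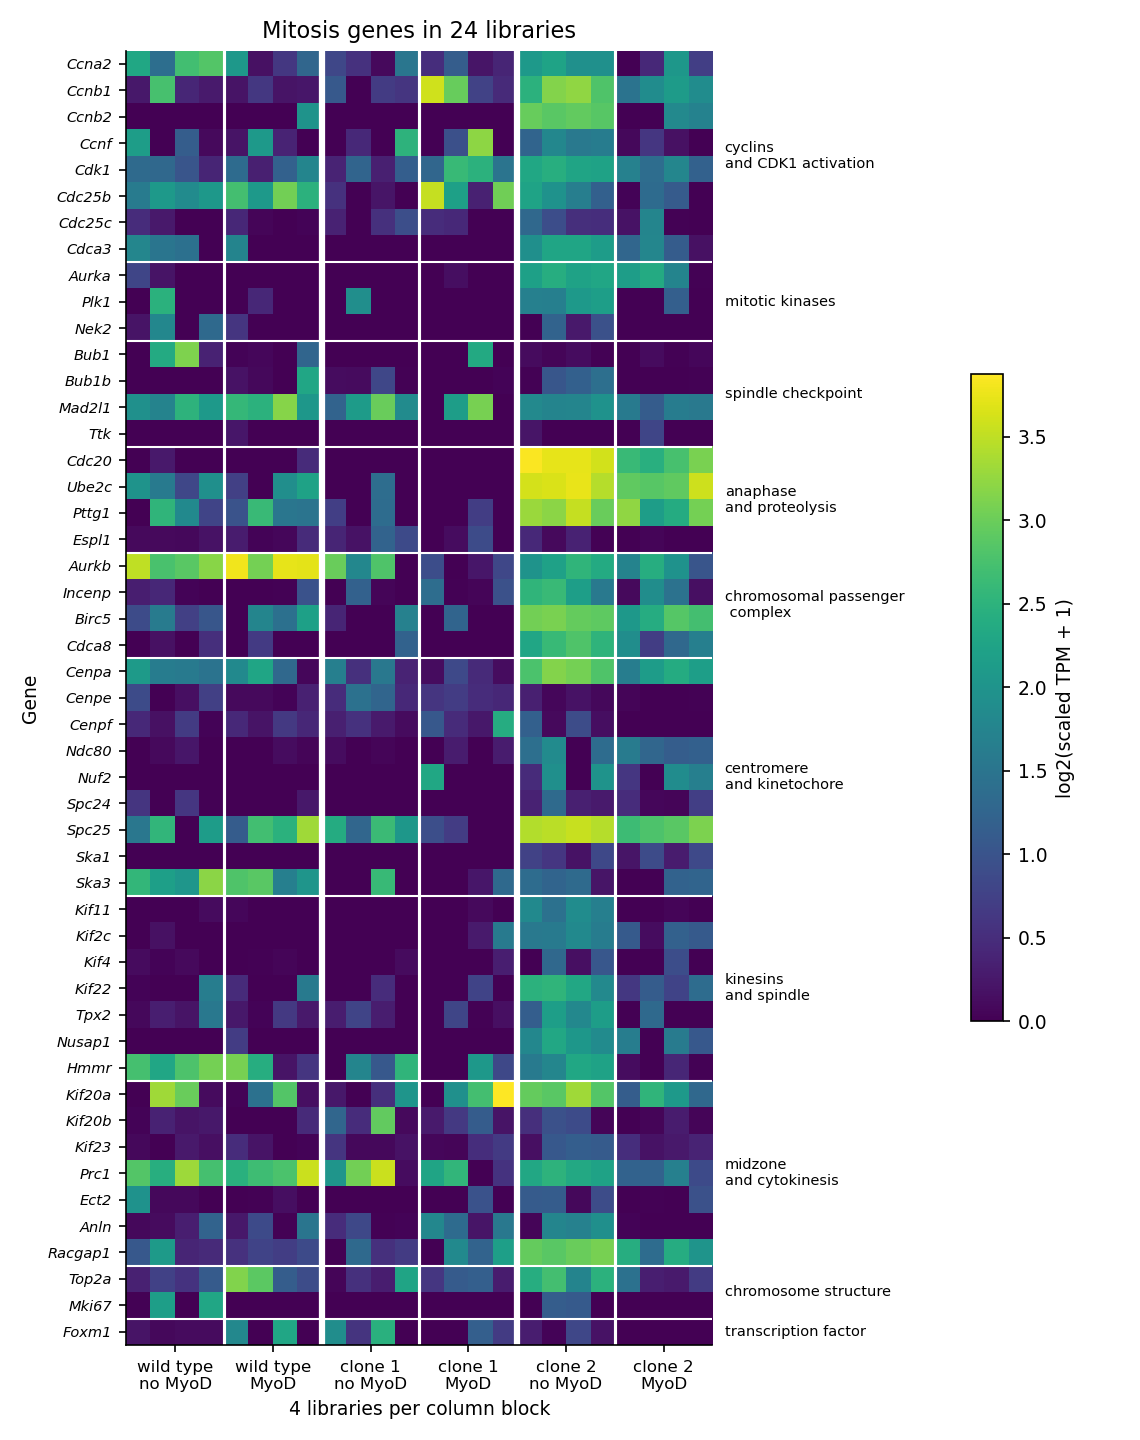
Level of each of the 49 mitosis genes, as log2(scaled TPM + 1) in colour, in 24 libraries ordered within each block as no plasmid replicates 1 and 2, then plasmid replicates 1 and 2; rows are grouped by role. Clone 2 without MyoD is the block with the most genes above 0, with 48 listed in each library.

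MyoD in clone 2 went with lower levels of mitosis genes: 8 of the 45 tested genes fell and none rose, while 2.29% of all tested genes fell and 1.65% rose. The 8 were Ccnb2, Plk1, Cdc20, Cdca8, Kif11, Tpx2, Hmmr and Top2a. The median log2 difference of the 45 genes was -0.79 against -0.0048 for all tested genes, and 44 of the 45 differences were below 0. The 44 include Kif4, Kif11 and Kif23, which passed the filter only through the arm without MyoD. In 25 of the 45 every library with MyoD was below every library without it and in none was the order opposite, while 9.64% of all genes lay wholly below and 13.2% wholly above. Over the same comparison 10 of 14 tested muscle markers rose, the 14 including Myod1, which the virus delivers. Of 12 fibroblast markers 4 fell and 0 rose, their summed level going from 2383 to 3380 without MyoD to 1687 to 2005 with it. In 5 of the 12 the libraries with MyoD lay wholly lower and in 2 wholly higher. S100a4 went from 444 to 513 without MyoD to 741 to 899 with it, and Vim from 195 to 226 to 292 to 356. The part of these markers in the result was not tested.

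Among the cyclins and CDK1 activators, Ccnb2, which encodes cyclin B2 (chr9:70407692-70421547), was at 6.86, 6.38, 6.67 and 6.27 in clone 2 without MyoD and at 0, 0, 2.56 and 2.28 with it. The groups did not overlap, both libraries listed at 0 had no plasmid, and the log2 difference was -2.03 ± 0.31 (SE; limma adjusted p = 0.000771). Ccnb1, which encodes cyclin B1, was at 4.601 to 8.39 without MyoD and 1.78 to 3.37 with MyoD, also without overlap, and did not pass the test (limma adjusted p = 0.178). Cdk1, the kinase itself, was at 3.69 to 4.38 and 1.2998 to 2.45, again apart and not called (limma adjusted p = 0.305). Ccnf and Cdca3 likewise did not overlap between the arms without being called, whereas Cdc25b and Cdc25c, the phosphatases that activate CDK1, overlapped. Ccna2, which encodes cyclin A2, was at 2.85 to 3.75 without MyoD and at 0, 0.356, 3.13 and 0.645 with it, overlapping through 1 library.

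Of the mitotic kinases, Plk1 (polo-like kinase 1, chr7:122159439-122169873) was at 2.24, 2.17, 3.25 and 3.48 without MyoD and at 0, 0, 1.25 and 0 with MyoD. Its log2 difference was -1.61 ± 0.46 (SE; limma adjusted p = 0.046). Aurka (Aurora A), at 3.61 to 4.36 without MyoD, was at 3.48, 4.19, 2.37 and 0.0117 with MyoD and was not called. Nek2, a centrosome kinase, was at most at 1.36 in the 8 clone 2 libraries. None of the 3 tested checkpoint genes was called, and Mad2l1, which encodes the MAD2 inhibitor of anaphase, lay at 2.36 to 2.92 without and 1.18 to 2.09 with MyoD.

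Cdc20 and Ube2c were the most abundant of the 49 genes in clone 2 without MyoD. Cdc20, the activator of the anaphase-promoting complex (chr4:118432901-118437352), was at 13.5, 12.3, 12.3 and 11.2 without MyoD and at 5.14, 4.47, 5.69 and 7.55 with MyoD. It stayed listed in every clone 2 library, and the log2 difference was -1.01 ± 0.21 (SE; limma adjusted p = 0.00767), just past the threshold of 1. Ube2c, the ubiquitin-conjugating enzyme of the same complex, was at 9.90 to 12.4 without MyoD and at 6.60, 6.34, 6.58 and 10.9 with MyoD, so its arms overlapped. Pttg1, which encodes securin, overlapped as well.

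In the chromosomal passenger complex, which corrects chromosome attachment and guides cytokinesis, Cdca8 (borealin, chr4:124918465-124939311) was at 3.90, 5.11, 6.001 and 4.75 without MyoD and at 2.73, 0.623, 1.47 and 2.18 with MyoD. Its log2 difference was -1.17 ± 0.31 (SE; limma adjusted p = 0.032). Birc5 (survivin) was at 6.55 to 7.51 and 3.17 to 6.19, apart but not called, and Aurkb (Aurora B), the kinase of the complex, was at 2.97 to 4.80 and 1.03 to 4.34 and overlapped. Incenp, its scaffold, had a log2 difference of -1.33 ± 0.44 and did not pass (limma adjusted p = 0.0961). No kinetochore gene was called. Spc25, the most abundant of them, was at 9.80 to 10.8 without MyoD and 5.28 to 7.63 with MyoD, and Ndc80 had the single difference above 0 among the 45 genes, at 0.14 ± 0.25 on the log2 scale.

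The spindle genes had 3 calls of 7. Kif11, the kinesin that pushes spindle poles apart (chr19:37376403-37421859), was at 2.56, 1.73, 2.68 and 2.18 without MyoD and at 0.00089, 0, 0.0368 and 0 with MyoD. No library came near the other arm, and the log2 difference of -1.69 ± 0.15 had the smallest p of the 45 genes (SE; limma adjusted p = 3.56e-06). Kif11 passed the filter only through the arm without MyoD, where it was high, so this p is given as a description. Hmmr, a spindle assembly protein (chr11:40701395-40733422), was at 2.03, 2.44, 3.94 and 3.68 and at 0.0934, 0.00715, 0.336 and 0.0135, a log2 difference of -1.83 ± 0.40 (SE; limma adjusted p = 0.0112). Tpx2, which activates Aurora A on the spindle (chr2:152847964-152895321), was at 1.22, 3.502, 2.49 and 3.45 without MyoD and at 0.00244, 1.49, 0.00266 and 0.00139 with it; 1 library with MyoD exceeded the lowest without, and the log2 difference was -1.49 ± 0.35 (SE; limma adjusted p = 0.0165). Ccnb2, Kif11 and Hmmr kept their calls in all 8 fits that left out a clone 2 library.

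Of the midzone and cytokinesis genes none of 7 was called, although Prc1, Kif20a, Anln and Racgap1 did not overlap between the arms. Anln, which encodes the ring protein anillin, was at 0.0371, 2.38, 2.27 and 2.82 without MyoD and at 0.0298 or less with it. Top2a, the topoisomerase that untangles sister chromatids (chr11:98992943-99024189), was at 4.32, 5.58, 2.36 and 4.62 without MyoD and 1.72, 0.255, 0.216 and 0.589 with MyoD. Its log2 difference was -1.66 ± 0.40 (SE; limma adjusted p = 0.0186). Mki67, which encodes the proliferation marker Ki-67, was listed in 3 of 8 clone 2 libraries and at no more than 1.20, and Foxm1 at no more than 0.775.

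**Figure D3:**
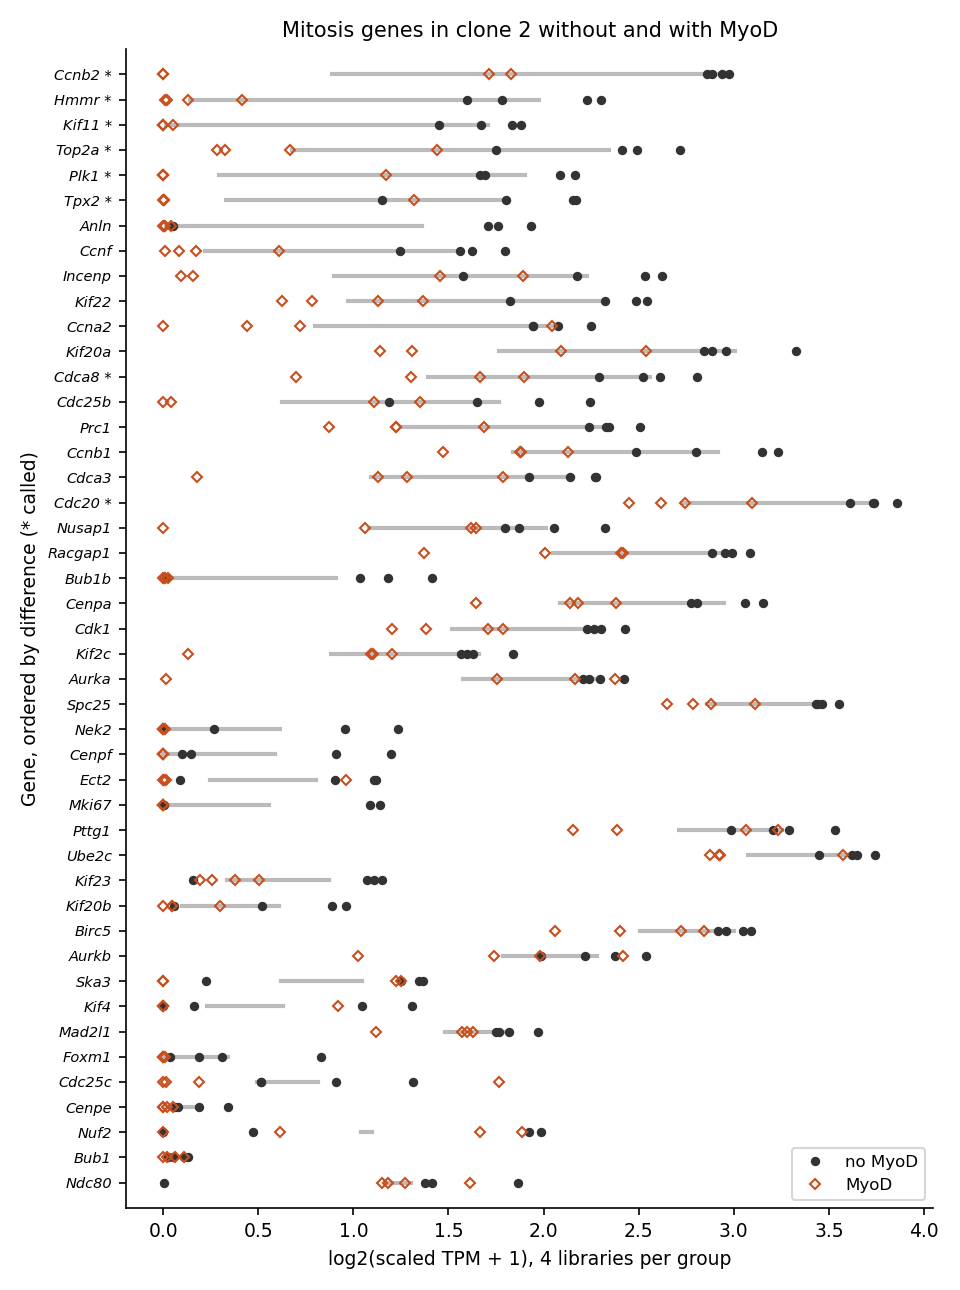
The 45 tested mitosis genes in clone 2, with log2(scaled TPM + 1) of the 4 libraries without MyoD (filled circles) and the 4 with MyoD (open diamonds); grey lines join the means, genes are ordered by the difference, and asterisks mark the 8 called genes. In 25 genes the diamonds all lie left of the circles.

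The number of calls in clone 2 moved with the scaling and with the transcripts counted. With TPM as deposited, where the median of all tested genes was at -0.33, 36 members fell. Calls over all tested genes, in either direction, went from 664 to 3149 with it. With protein-coding transcript models only 14 members fell and with clone 2 scaled and fitted alone 19, where the share of all genes is not given, so neither count can be set against it. Each of these settings had all 8 genes among them. With unnamed transcripts added none of the 8 was called, and 2 other members were, Ccna2 and Kif20a, named here after their values were seen. With a pseudocount of 5 none was called, and no member rose in any of these. The 2 libraries per arm without plasmid gave 3 calls and those with plasmid 1. Leaving out a library ended other calls: Plk1 in 7 of 8 fits, all but that without MyoD with plasmid replicate 1 (limma adjusted p up to 0.177), and Cdca8 in 6 of 8, all but those without MyoD replicate 1 or MyoD with plasmid replicate 2 (up to 0.137). Tpx2 was lost without MyoD replicate 1, plasmid replicate 2 or untreated replicate 2 (up to 0.09), and Top2a without MyoD replicate 2, MyoD with plasmid replicate 1, plasmid replicate 2 or untreated replicate 2 (up to 0.0904). Cdc20 fell short of the log2 threshold, at -0.90 at the least, without MyoD replicate 2, MyoD with plasmid replicate 1, plasmid replicate 1 or untreated replicate 1.

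In wild type no mitosis gene was called for MyoD, where 0.256% of all tested genes were. The smallest limma adjusted p of the 45 genes was 0.345, with 4 genes at an unadjusted p under 0.05: Top2a higher, and Ccna2, Hmmr and Mki67 lower. Ccna2 was at 3.95, 1.63, 5.48 and 6.13 without MyoD and at 3.20, 0.131, 0.549 and 1.42 with it, a log2 difference of -1.27 ± 0.43 (SE; limma adjusted p = 0.501). Top2a was at 0.283, 0.675, 0.486 and 1.17 without MyoD and at 7.82, 6.46, 1.21 and 0.870 with MyoD, high in both libraries without plasmid only. Mki67 was listed in 3 of 4 wild type libraries without MyoD, at 0.0136, 3.52 and 3.92, and was listed at 0 in the 4 with MyoD. Cyclin B2, Kif11 and Cdc20, which fell in clone 2, were at or near 0 in most wild type libraries: Ccnb2 was listed in 1 of 8, with MyoD and plasmid, at 2.97, Kif11 in 2, at most at 0.0805, and Cdc20 in 2, at most at 0.396. At 0 or near it a fall could not have been detected. Cdc25b was at 2.05 to 3.258 without MyoD and 3.271 to 7.30 with it, the 1 member of the 45 whose arms did not overlap in wild type, where 1.42% of all tested genes lay wholly higher and 1.1% wholly lower. It was not called (log2 difference 0.68 ± 0.50, SE; limma adjusted p = 1). Other genes with higher levels in wild type overlapped, such as Aurkb at 5.75 to 10.3 without and 7.34 to 12.9 with MyoD, Prc1, the midzone crosslinker, at 4.41 to 8.92 and 4.52 to 10.8, and Mad2l1 at 2.33 to 4.68 and 3.16 to 8.02. The log2 differences of these 3 were not called.

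In clone 1 the call was Cdc25b, 1 of 45 genes against 1.47% of all tested genes. It was at 0.468, 0, 0.167 and 0 without MyoD and at 10.6, 3.59, 0.277 and 7.18 with MyoD, and 1 library with MyoD lay within the range without it. The log2 difference was 2.09 ± 0.50 (SE; limma adjusted p = 0.0428), lost in 6 of 8 fits that left out a clone 1 library and kept without MyoD replicate 2 or MyoD with plasmid replicate 1, with adjusted p up to 0.114. Ccnb1 was at 11.04 and 6.88 in clone 1 with MyoD alone and at 0.699 and 0.375 with MyoD and plasmid, against 0 to 1.11 without MyoD, and was not called (limma adjusted p = 0.137). Kif20a, the cytokinesis kinesin, ranged from 0 to 13.7 in the 4 clone 1 libraries with MyoD. Ccnb2, Cdc20, Cdca3, Nek2, Nusap1, Mki67, Ttk, Spc24 and Ska1 were listed at 0 in all 8 libraries of clone 1.

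The differences between lines in the response were tested directly (plot of the MyoD differences by line). Against wild type, 3 of 45 genes had a lower response in clone 2 and none a higher one, where 1.02% of all tested genes were lower and 0.66% higher. Top2a differed by -2.99 ± 0.57 (SE; limma adjusted p = 0.0111), being lower with MyoD in clone 2 and higher, not called, in wild type. Ccnb2 differed by -2.53 ± 0.43 (SE; limma adjusted p = 0.00592) and Kif11 by -1.68 ± 0.21 (SE; limma adjusted p = 0.000406). Kif11 passed the filter only through clone 2 without MyoD, so its p here and against clone 1 is given as a description. In wild type Kif11 was at most at 0.0805, and Ccnb2 was listed in a single library, at 2.97 with MyoD and plasmid, so that its difference ran from -3.06 to -2.05 when 1 library was left out. Against clone 1, 4 genes had a lower response in clone 2 and none a higher one, where 1.15% of all genes were lower and 1.05% higher: Cdc25b by -3.22 ± 0.71 (limma adjusted p = 0.0251), Ccnb1 by -2.44 ± 0.60 (limma adjusted p = 0.0423), Ccnb2 by -2.03 ± 0.43 (limma adjusted p = 0.0219) and Kif11 by -1.72 ± 0.21 (limma adjusted p = 0.00038), each ± SE. In clone 1 Ccnb2 was listed at 0 in every library and Kif11 was at most at 0.0694, so a fall could not have been detected there. Between clone 1 and wild type no member was called, against 0.333% of all genes, with 5 members at an unadjusted p under 0.05 in limma. The 2 tests against clone 2 share its libraries. Against wild type the 3 calls held in all 16 fits that left out a library. Against clone 1, Ccnb1 was lost in 14 of 16 fits, all but those without MyoD replicate 2 or untreated replicate 1 of clone 1 (limma adjusted p up to 0.107), and Ccnb2 without untreated or plasmid replicate 1 of clone 2 (up to 0.0511). Cdc25b was lost in 6, without untreated replicate 2 of either line or, in clone 2, untreated replicate 1, plasmid replicate 1, MyoD replicate 1 or MyoD with plasmid replicate 2 (up to 0.0662). With unnamed transcripts added, no member differed from wild type in its response, and none of the 4 genes differed from clone 1, where 2 others did, Cdc20 and Racgap1, named after their values were seen.

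**Figure D4:**
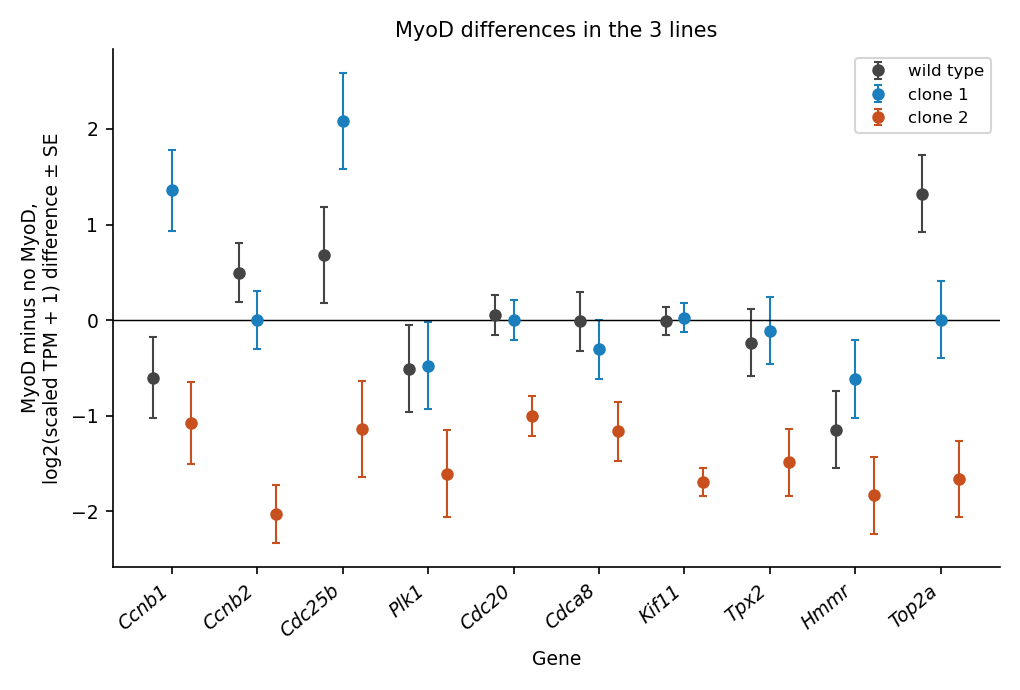
MyoD minus no MyoD difference in log2(scaled TPM + 1), with limma's SE, in wild type, clone 1 and clone 2, for the 10 mitosis genes called in a MyoD comparison or in a difference between lines. All 10 clone 2 points lie below 0, and Top2a in wild type and Cdc25b and Ccnb1 in clone 1 lie above 1.

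Without MyoD, clone 2 and wild type differed in 22 of 45 genes, 21 higher and 1 lower in clone 2, where 21.4% of all tested genes were higher and 10.7% lower. Of the 21, Cdc20, Aurka, Ndc80, Nusap1 and Kif11 reached 1 scaled TPM only in clone 2. Ccnb2, Cdca8, Kif2c and Tpx2 reached it in 1 library outside clone 2. All of these passed the filter only through clone 2, where they were higher. Their calls and p-values, and their part in the counts below, are given as a description. In 20 genes all clone 2 libraries lay above all wild type libraries and in 2 below, against 27.3% and 14.6% of all genes. The higher genes came from every role except the checkpoint and Foxm1: 3 of 3 tested anaphase genes, 3 of 4 passenger complex genes, 5 of 7 spindle genes, 3 of 8 cyclin and CDK1 genes, 2 of 3 kinases, 3 of 7 kinetochore genes, 1 of 7 cytokinesis genes and 1 of 2 chromosome structure genes. In the same comparison 5 of 12 fibroblast markers were higher in clone 2 and 4 lower, with S100a4 at 443.8 to 513 against 29.7 to 34.1 and Thy1 at 0.992 to 1.58 against 10.6 to 16.5, while their summed level overlapped, at 2383 to 3380 against 2039 to 3129. Of the endothelial markers Tek, which passed the filter only through clone 2, was called higher, at 0.861 to 2.12 against 0. Cdh5, Kdr and Emcn were at 0 in both lines. Of the neural markers Map2 was called lower, at 0.351 to 2.15 against 3.31 to 11.7. What part the fibroblast, endothelial and neural markers had in the result was not tested. Cdc20 was at 11.2 to 13.5 in clone 2 and listed in 1 of 4 wild type libraries, at 0.201, a log2 difference of 3.67 ± 0.21 (SE; limma adjusted p = 1.19e-09). As Cdc20 passed the filter only through clone 2, this p is given as a description. Cdca8 was at 3.90 to 6.001 against 0 to 0.438, with 2.38 ± 0.31 (SE; limma adjusted p = 1.34e-05), and Ube2c at 9.90 to 12.4 against 0.776 to 2.95, with 2.03 ± 0.33 (SE; limma adjusted p = 0.000115). Ccnb2 and Nusap1, a microtubule bundler, were listed at 0 in all 4 wild type libraries and at 6.27 to 6.86 and 2.48 to 4.005 in clone 2. The lower gene was Ska3, an outer kinetochore subunit, at 0.167 to 1.58 in clone 2 and 3.09 to 8.15 in wild type. Aurkb, at 5.75 to 10.3 in wild type, also lay wholly above clone 2, at 2.97 to 4.80, without passing the test. Leaving out a library ended 5 of the 22 calls: Plk1 in 7 of 8 fits, all but that without untreated replicate 2 of wild type (limma adjusted p up to 0.226), Ska3 in 4, those without plasmid replicate 2 of either line, untreated replicate 1 of wild type or untreated replicate 2 of clone 2 (up to 0.0975), and Cdk1 without plasmid replicate 2 of wild type (0.0521). Tpx2 was lost without plasmid replicate 1 of wild type or untreated replicate 2 of clone 2 (up to 0.0521), and Ndc80, at a log2 difference of 0.71 at the least, without untreated or plasmid replicate 2 of clone 2.

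Other genes higher in clone 2 without MyoD spanned several steps of mitosis. Cenpa, the histone H3 variant that marks centromeres, was at 5.85 to 7.89 in clone 2 and 1.79 to 3.32 in wild type (log2 difference 1.25 ± 0.36, SE; limma adjusted p = 0.0113). Spc25 was at 9.80 to 10.8 against 0 to 4.84, Birc5 at 6.55 to 7.51 against 0.662 to 2.07, and Aurka at 3.61 to 4.36 against 0 to 0.757. The groups stood apart in each of these. Incenp was at 1.98 to 5.15 against 0 to 0.355, Racgap1 at 6.397 to 7.48 against 0.316 to 3.33, and Pttg1 at 6.91 to 10.6 against 0 to 4.80. The kinesins were lower in level: Kif2c, which takes microtubules apart at kinetochores, was at 1.97 to 2.58 against 0 to 0.131, and Kif22, which moves chromosome arms, at 2.54 to 4.82 against 0 to 2.12. Ccnb1 and Plk1 were called although their groups overlapped, through untreated replicate 2 of wild type at 5.69 and 4.56, against at most 0.339 and 0 in the other 3 wild type libraries.

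Among the members not called in any of the 12 comparisons, 9 were low in most libraries. The checkpoint kinases Bub1 and Bub1b reached at most 7.69 and 3.92, both in wild type, and were at no more than 0.095 and 1.66 in clone 2. The kinetochore proteins Cenpe and Cenpf reached 1.72 and 4.25, both in clone 1, and Nuf2, an NDC80 complex subunit, 3.95 in a single clone 1 library and 2.97 in clone 2. The kinesins Kif4, Kif20b and Kif23 reached 1.48, 6.69 and 1.22, and Ect2, the activator of RhoA at the division site, 2.94. Cenpf lay at 0.0724 to 1.29 in clone 2 without MyoD and at 0.0012 or less with it.

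The counts and the lower calls between clone 2 and wild type moved with the scaling. On the deposited TPM 42 of the 45 genes were higher in clone 2 and none lower, on a scale where the median of all tested genes moved by 1.72 on the log2 scale. All genes called on the deposited TPM, in either direction, numbered 10635, against 5396 on the scaled TPM. None of the 21 higher calls changed sign there, and the 1 lower call, Ska3, did, to 0.78. With MyoD the same comparison gave 8 higher and 6 lower of 45, where 21.7% and 12.7% of all genes were called, and 23 higher and none lower on the deposited TPM, with a median shift of 1.05. All genes called with MyoD numbered 8719 on the deposited TPM and 5788 on the scaled TPM. The 8 were Cdc20, Ube2c, Aurka, Ccnb1, Racgap1, Ndc80, Cdca8 and Birc5, and the 6 were Cdc25b, Aurkb, Ska3, Prc1, Hmmr and Top2a. Of the 8, Cdc20, Aurka, Ndc80 and Cdca8 passed the filter only through clone 2, where they were higher. Their calls and p-values are therefore given as a description. Cdc20, at 4.47 to 7.55 in clone 2 and at most 0.396 in wild type, differed by 2.61 ± 0.21 (SE; limma adjusted p = 4.81e-08), and Cdc25b, at 0 to 1.55 and 3.27 to 7.30, by -1.97 ± 0.50 (SE; limma adjusted p = 0.00487). Of the 6 lower genes, Aurkb, Prc1 and Top2a changed sign on the deposited TPM, to 0.50, 0.45 and 0.091, and none of the 8 higher genes did. Of the markers, 3 of 12 fibroblast genes were higher in clone 2 with MyoD and 5 lower, and 7 of 14 tested muscle genes higher and 2 lower. The 14 include Myod1, which the virus delivers. Leaving out a library ended the call of Birc5 in 6 of 8 fits, all but those without MyoD replicate 2 or MyoD with plasmid replicate 2 of wild type (limma adjusted p up to 0.22), and of Prc1 in 5, all but those without MyoD replicate 1 of wild type or MyoD with plasmid replicate 1 of either line (up to 0.0917). Racgap1 was lost without MyoD replicate 1 of either line or MyoD with plasmid replicate 1 of clone 2 (up to 0.078), Top2a without MyoD replicate 2 of clone 2 (0.0744), and Cdca8, at a log2 difference of 0.91, without MyoD replicate 1 of clone 2.

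Between clone 1 and wild type few mitosis genes were called. Without MyoD, Ska3 and Ube2c were lower in clone 1 and none higher, where 1.97% of all genes were lower and 0.773% higher. Ska3 was at 0, 0, 5.09 and 0 in clone 1 and at 3.09 to 8.15 in wild type (log2 difference -1.84 ± 0.46, SE; limma adjusted p = 0.0361), and the lines overlapped through clone 1 with plasmid replicate 1. Ska3 and Ube2c kept their calls in 2 of 8 fits that left out a library, those without plasmid replicate 1 of either line, and lost them in the others (limma adjusted p up to 0.13 and 0.169). With MyoD, 4 genes were lower, where 4.1% of all genes were, and 1 was higher, where 1.93% were. Aurkb was at 0.888, 0, 0.175 and 0.763 in clone 1 and at 12.9, 7.34, 12.3 and 12.2 in wild type, far apart, with a log2 difference of -3.08 ± 0.49 (SE; limma adjusted p = 0.00128). Spc25, an NDC80 complex subunit, differed by -2.01 ± 0.45 (SE; limma adjusted p = 0.012) and Ska3 by -1.96 ± 0.46 (SE; limma adjusted p = 0.0158), both without overlap. Ube2c was listed at 0 in all 4 clone 1 libraries with MyoD and at 0 to 3.69 in wild type. Ccnb1, the higher gene, was at 0.375 to 11.04 against 0.149 to 0.547, with a log2 difference of 1.63 ± 0.42 (SE; limma adjusted p = 0.0272) that changed to -0.14 when unnamed transcripts were added. Ccnb1 was lost without MyoD replicate 1 or either MyoD with plasmid library of wild type or MyoD replicate 1 of clone 1 (limma adjusted p up to 0.0882), and Ube2c without those or MyoD with plasmid replicate 2 of clone 1 (up to 0.115). Spc25 was lost without MyoD replicate 2 or MyoD with plasmid replicate 2 of wild type (up to 0.0559) and Ska3 without the latter (0.0522). All comparisons against wild type share its libraries.

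The LncMyoD plasmid, averaged over the 3 lines, changed no mitosis gene without MyoD or with it, where 0.0178% and 0.16% of all tested genes were called. Without MyoD no member had an unadjusted p under 0.05 in limma. With MyoD 6 did: Ccnb2, Ube2c and Kif2c higher with plasmid, and Ccnb1, Cdc25c and Top2a lower. The smallest limma adjusted p was 0.182, for Ccnb2, which with MyoD was listed in 3 of 6 libraries with plasmid and 0 of 6 without.

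The transcript models behind these values differed between lines (plot of the transcript models). Models annotated as protein-coding held 88.6% to 93.5% of the members' TPM in clone 2, 70.5% to 83.2% for wild type and 22.1% to 66.5% in clone 1, while over all protein-coding genes the share was 86.7% to 95.1% in every library. Retained-intron models, transcripts that keep an intron and are not expected to give the full protein, held 28.3% to 73.7% in clone 1, 12.7% to 22.3% in wild type and 1.53% to 7.40% in clone 2. In clone 2 39 to 42 genes had a protein-coding model without MyoD and 23 to 31 with MyoD, against 12 to 18 in wild type and 3 to 10 in clone 1. No protein-coding model was assembled in any library for 19 genes in wild type, 29 in clone 1 and 4 in clone 2. Ccnb1 in clone 1, for example, averaged 2.65 over 8 libraries, of which 0.669 was on a protein-coding model in 1 library, and Racgap1, a cytokinesis regulator, averaged 1.25 in clone 1 with 15.9% on such models and 5.10 in clone 2 with 97.9%. Cdc20 and Kif11 in wild type had no protein-coding model at all.

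**Figure D5:**
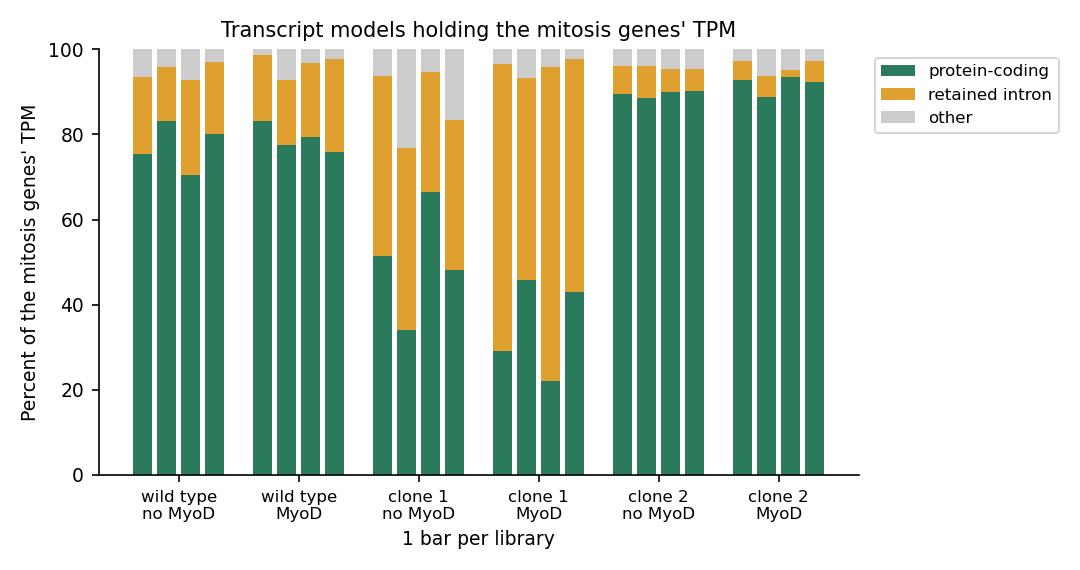
Percent of the mitosis genes' TPM on protein-coding, retained-intron and other transcript models, 1 stacked bar per library by line and MyoD, libraries in the same order as in the heat map. The protein-coding part is 88.6% to 93.5% in clone 2 and 22.1% to 66.5% in clone 1.

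Genes that work beside the 49 were read from lists of partners. In clone 2 with MyoD, where 2.29% of all tested genes fell and 1.65% rose, 3 of 20 tested condensin and cohesin genes fell, among them Cdca5 (sororin, which protects cohesion) and Wapl (which releases cohesin), both listed at 0 in the 4 libraries with MyoD. Wapl was also listed at 0 in clone 2 without MyoD or plasmid, and at 5.57 and 6.75 with plasmid alone. Of 18 other spindle and cytokinesis genes 2 fell, Dlgap5 by 1.31 ± 0.27 on the log2 scale (SE; limma adjusted p = 0.00701) and Spag5 by 1.10 ± 0.20 (SE; limma adjusted p = 0.0027), and of 13 other entry regulators 1 fell, Pkmyt1, the kinase that holds CDK1 inactive. Spag5 and Pkmyt1 passed the filter only through clone 2 without MyoD, where they were high, so their falls are given as a description. The medians of these 3 lists were -0.65, -0.79 and -0.35, against -0.0048 for all tested genes. Of 17 anaphase-promoting complex subunits 1 rose, Anapc13, and of 23 kinetochore partners 1 rose, Cenpx. None of 16 MuvB, MYB and E2F factors and none of 29 replication genes was called, with list medians of -0.24 and -0.36. Of 10 cell cycle exit genes Btg2, an antiproliferative gene, fell by 2.42 ± 0.21 on the log2 scale and none rose. In wild type no gene of these 8 lists was called for MyoD, and in clone 1 only Numa1, a spindle pole protein, which fell by 2.86 ± 0.44 on the log2 scale. Without MyoD, 14 of 29 replication genes were higher in clone 2 than in wild type and 1 lower, where 21.4% and 10.7% of all tested genes were, with Pcna, the replication clamp, at 16.8 in clone 2 and 0.21 in wild type on average.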

How the data were processed

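Polyadenylated RNA of 24 libraries was copied with a low-input full-length kit that does not mark strand, tagmented and sequenced as paired reads of 100 nt, per the labels' protocols. Tools named in the submitters' processing notes are Trimmomatic 0.36, StringTie 1.3.3, HISAT2 2.1.0, bcl2fastq 2.19 and SAMtools 1.3, with mm10 as the build. The deposited file of each library lists assembled transcripts with coverage, FPKM and TPM, per the file headers from StringTie 2.1.2 guided by GENCODE vM21. No read counts were used, so the reads behind a value are unknown and depth is given as gigabases, from the ratio of the authors' coverage to FPKM.

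TPM was summed over transcripts carrying a member's reference gene name and divided by median-of-ratios factors from 5089 genes above 0 in all libraries. Genes absent from a library's file were set to 0, and such a 0 may reflect failed assembly. Overlapping and antisense genes cannot be told apart. limma 3.58.1 in R 4.3.3 was fitted with a mean-variance trend on log2(scaled TPM + 1), 1 mean per group over 24 libraries (12 residual degrees of freedom), with Benjamini-Hochberg adjustment over 16824 genes within each of 12 comparisons. The + 1 understates changes of low genes. Line and MyoD comparisons average over plasmid, 4 libraries against 4. All 49 members are accounted for, and values by library, or as ranges, are given for those called or at a mean of at least 5 in some group. From each list up to 2 called genes a direction with the largest difference are named. Promoters were taken in order of the difference between clone 2 and wild type without MyoD, clipped at annotated exons. Members with under 90 free bases, such as Cdca8 and Ska3, or with the motif under an exon (Ube2c and Kif22) were passed over, which was decided after the windows were seen. Members and lists were chosen with earlier results of these data known. The code was tested on simulated data. Alternatives were other scaling, pseudocounts, filters, designs, transcripts counted, the replicate block and leaving out each library.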

Additional observations from a re-analysis of the deposited data

Results flagged for a closer look

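Of 140 groups of 4 libraries (1 line with or without MyoD) in which any of the 26 called members was listed, 38 had a library that stood far from the other 3 by Dixon's criterion, which chance meets in about 1 of 20 groups, and 21 of these reached 1 scaled TPM. In most, the other libraries were at or near 0. The summed level of the 49 genes had 1 such library, clone 1 with plasmid replicate 1 at 58.6.

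In wild type, 1 library was high for Ccnb1 (5.69) and Plk1 (4.56), both in untreated replicate 2, for Kif22 (2.12) and Tpx2 (1.92), both in plasmid replicate 2, and for Ccnb2 (2.97) in MyoD with plasmid replicate 2. Aurkb was low in MyoD replicate 2, at 7.34 against 12.2 to 12.9. In clone 1 without MyoD, Ska3 (5.09) and Ube2c (1.60) were high in plasmid replicate 1, Birc5 (2.26), Cdca8 (1.33) and Top2a (3.82) in plasmid replicate 2, and Incenp (1.29) and Plk1 (2.76) in untreated replicate 2. In clone 1 with MyoD, Birc5 (1.38) was high in MyoD replicate 2, and Kif2c (2.01) and Ska3 (1.498) in MyoD with plasmid replicate 2. In clone 2 with MyoD, Plk1 (1.25) was high in MyoD with plasmid replicate 1, Tpx2 (1.49) in MyoD replicate 2 and Ube2c (10.9) in MyoD with plasmid replicate 2, while Kif2c was low in MyoD replicate 2, at 0.0965. Ska3 was low in clone 2 with plasmid replicate 2, at 0.167.

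The MyoD difference of 5 genes differed between lines by a test of the difference itself in limma. In clone 2 it stood against wild type at -2.53 for Ccnb2, -1.68 for Kif11 and -2.99 for Top2a on the log2 scale, and against clone 1 the differences were -2.44 for Ccnb1, -2.03 for Ccnb2, -3.22 for Cdc25b and -1.72 for Kif11. Kif11 passed the filter only through clone 2 without MyoD, so its differences are given as a description.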

How the results depend on the processing

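Values are the number of mitosis genes called. MyoD in clone 2 had 8, and 36 with TPM as deposited, 19 with the line scaled and fitted alone, 14 with protein-coding models only, 5 with a pseudocount of 0.25, 0 with 5, 5 with quantile normalization, 2 with a filter of 12 libraries, 2 with unnamed transcripts added, 1 in groups with plasmid and 3 in those without. The line-alone and protein-coding settings were chosen after seeing the data. Clone 2 against wild type without MyoD had 22, and 42 as deposited, 10 with the filter of 12 libraries, 14 in groups without plasmid and 4 with a pseudocount of 5. With MyoD it had 14, and 23 as deposited, 9 in groups with plasmid, 7 without plasmid and 2 with a pseudocount of 5. Clone 1 against wild type with MyoD had 5, and 1 with only the groups compared, 1 with a pseudocount of 5 and 3 with unnamed transcripts added. Without MyoD it had 2, and 1 as deposited or with unnamed transcripts, and 0 with groups with plasmid, groups without plasmid, no filter, only the groups compared or a pseudocount of 5. Over all tested genes, calls as deposited went from 664 to 3149 for MyoD in clone 2. For clone 2 against wild type they went from 5396 to 10635 without MyoD and from 5788 to 8719 with it. For the clone 2 response they went from 283 to 1810 against wild type and from 369 to 1734 against clone 1. For the other settings, here and below, the share of all tested genes is not given, so their counts cannot be set against it. Under the filter of 12 libraries only 33 of the 59 calls were still tested, and 32 were kept.

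MyoD in clone 1 had 1 call, and 0 as deposited, with the line alone, the filter of 12 libraries, groups with plasmid, no filter, only the groups compared, protein-coding models, a pseudocount of 5 or unnamed transcripts added. The response of clone 2 against wild type had 3, and 19 as deposited, 1 with the filter of 12 libraries, 7 with protein-coding models and 0 with unnamed transcripts. Against clone 1 it had 4, and 21 as deposited, 9 with protein-coding models and 2 with either pseudocount or with unnamed transcripts. The plasmid with MyoD had 0, and 1 as deposited or with protein-coding models. The summed level's ratio in clone 2, 0.438, was 0.318 as deposited and 0.635 with unnamed transcripts.

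Leaving out each library in turn gave 0 to 1 calls for MyoD on wild type, 0 to 3 on clone 1 (3 without its plasmid replicate 2) and 4 to 7 on clone 2 (4 without its untreated or plasmid replicate 2). Without MyoD with plasmid replicate 1 of wild type, both MyoD in wild type and the plasmid with MyoD had 1. It gave 0 to 4 for clone 1 against wild type without MyoD (4 without plasmid replicate 1 of clone 1), 1 to 8 with MyoD (1 without MyoD with plasmid replicate 2 of wild type, 8 without replicate 1 of that arm in clone 1), 18 to 24 and 10 to 15 for clone 2, 0 to 1 for the clone 1 response, 3 to 4 and 1 to 6 for the clone 2 response against wild type and clone 1 (1 without plasmid replicate 1 of clone 2), and 0 to 1 for the plasmid with MyoD.

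With unnamed transcripts added, the calls shared with those reported were 0 of 8 for MyoD in clone 2, 12 of 22 and 7 of 14 for clone 2 against wild type without and with MyoD, and 1 of 5 for clone 1 with MyoD. As deposited they were 8 of 8, 21 of 22, 8 of 14 and 3 of 5. Over all settings, 1264 values of the 59 calls kept the call in 951, lost it in 304 and changed sign in 9. With unnamed transcripts added, Ube2c in clone 1 against wild type without MyoD was at 0.17, Plk1 and Tpx2 in clone 2 against wild type without MyoD at -0.19 and -0.45, Ccnb1 in clone 1 against wild type with MyoD at -0.14, and Racgap1 in clone 2 against wild type with MyoD at -0.33. As deposited, Ska3 in clone 2 against wild type was at 0.78 without MyoD, and Aurkb, Prc1 and Top2a at 0.50, 0.45 and 0.091 with MyoD. The cause was not tested, and low levels with unknown read numbers limit every value near 0.

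The replicate numbers did not pair the samples: over 66 pairs of groups the correlation of replicate differences was -0.0742 to 0.0289, with 0 above 0.1. With the replicate block, MyoD in clone 2 had 9 calls, MyoD in clone 1 had 0 and clone 1 against wild type without MyoD had 1, and 56 of the 59 calls were kept.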
